A study of Arabidopsis thaliana with 16 samples.

Results

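Transposable elements that share a transcribed locus with a protein-coding gene were examined in seedlings of Arabidopsis thaliana. The elements were chosen by their own values: an element was kept when its annotated locus shared at least 1 bp with that of a protein-coding gene and when its FPKM (fragments scaled to transcript length and sequencing depth) was above 0 in at least 1 of the groups compared. Of 31116 annotated transposable elements, 5900 shared a locus with a protein-coding gene, and 784 of these had a value above 0. They formed 994 pairs with 913 genes. Every count and ratio of the elements below comes from the same values that chose them and is given as a description.

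The series measured RNA in whole seedlings frozen on day 10, grown on 1/2X MS agar with 1% sucrose. Col-0 is the Columbia-0 wild type. The dd plants are the double mutant drm1-2 drm2-2, 2 T-DNA insertions in the Columbia-0 background. All groups received 60 mE of white light, and the UV-B group also received 1.5 mE of UV-B at 315 nm from day 1. Mutant and wild type were compared under white light, and the wild type was compared between UV-B and white light, with the same Col-0 white light libraries serving both comparisons. Each group had 2 RNA-seq libraries, labelled as biological replicates, but the deposited tables hold a single pooled FPKM for each group, and replicate spread is therefore not shown for any value. The dd plants under UV-B and the bisulfite libraries were not analysed here.

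Transposable elements are mobile or once mobile DNA sequences. In plants most are kept silent by DNA methylation, and small interfering RNAs guide new methylation to them in the pathway called RNA-directed DNA methylation, whose main methyltransferase in Arabidopsis is DRM2. Elements inside or beside genes tend to be short remnants, and some of them lie in introns or untranslated regions, where they can be read together with the gene. The library kit kept the strand of the RNA, per the labels, but how strand was used in counting, and each element's strand, family and own boundaries, were not found in the labels or tables.

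The labels were checked on the disrupted genes. DRM2 had 7.09 FPKM in Col-0, 1.82 in dd and 6.74 under UV-B, and it was lower in dd by a log2 ratio of -1.96, with q = 0.0138 in the authors' deposited table. DRM1 was listed at 0 in Col-0 and under UV-B and at 0.319 FPKM in dd, which is too little to check the insertion. Over all entries that the authors tested, 54 were higher in dd and 32 were lower at a q under 0.05, or 0.264% and 0.157% of 20416. Under UV-B 420 were higher and 373 lower, or 2.04% and 1.81% of 20595.

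Where the elements lie limits what their values mean. For all 994 pairs the table gives the element and the gene the same locus range, because the locus column holds the extent of a whole group of overlapping transcripts. These shared loci spanned 350 to 21652 bp, with a median of 3414.5 bp, and there were 722 of them. They held 1290 annotated elements, of which 506 were at 0 in every group. A single gene shared the locus with 610 of the 784 elements, 2 genes with 146 elements, and up to 5 genes with the others. In 49 loci more than 1 element had a value, with a highest number of 5, and 67 loci also held a transposable element gene, an open reading frame of the element itself. The elements were spread over all chromosomes, with 195 on chromosome 1, 133 on chromosome 2, 150 on chromosome 3, 124 on chromosome 4 and 182 on chromosome 5. All coordinates below are those of the shared locus in the deposited tables, build TAIR10 per the submitters' processing notes.

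Having a value above 0 was more frequent among elements that share a locus with a gene than among those that do not. The share was 13.3% of the 5900 elements in gene loci, against 4.83% of the 25216 others, of which 1219 had a value. The values at the edge of the choice were very small. The weakest elements kept were AT2TE27670, AT3TE49090 and AT2TE18410, with highest values of 2.09e-07, 6.25e-07 and 1.10e-06 FPKM, and those just outside were the 5116 elements listed at 0. Highest values under 0.01 FPKM were found in 25 of the 784 elements, and 427 reached 1 FPKM in some group.

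Levels differed between the groups mostly in how many elements had any value. In Col-0 under white light 607 of the 784 elements (77.4%) were above 0, against 394 (50.3%) in dd and 401 (51.1%) under UV-B. The median of the values above 0 ran the other way, at 1.07 FPKM in Col-0 under white light, 3.03 in dd and 2.30 under UV-B. The genes in the same loci had medians of 9.70, 10.6 and 10.3 FPKM in these groups. Values were found in all 3 groups for 226 elements and in a single group for 236 (Col-0 under white light), 82 (dd) and 74 (UV-B). A ratio could therefore be formed for 291 elements for dd and 306 for UV-B. In both comparisons, entries of all kinds were also more often above 0 in Col-0 under white light alone, as counted below.

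**Figure D1:**
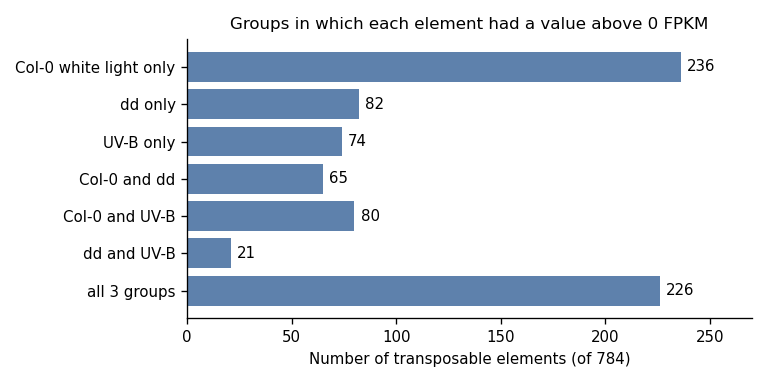
Number of transposable elements in gene loci (x axis) for each combination of groups in which their FPKM was above 0 (y axis), out of 784 elements. The longest bars are elements with a value only in Col-0 under white light (236) and in all 3 groups (226).

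The highest values belonged to a few elements, most of them far above the genes of their loci. AT4TE43840, in the locus of the gene G2484-1 (chr4:9687709-9697706), had 3427 FPKM in Col-0 under white light, 1809 in dd and 4915 under UV-B, while G2484-1 had 12.4, 12.6 and 12.9 FPKM. AT4TE32420, in the locus of CPR1 (chr4:7441681-7444600), an F-box protein that limits the amount of immune receptors, had 3353, 2610 and 2390 FPKM, and CPR1 had 33.3, 33.1 and 31.2 FPKM. In both loci the element's value lay far above that of the gene, and the gene's pooled values were closer together than those of the element. The authors' deposited tables give AT4TE43840 an unadjusted p of 0.479 for dd and 0.51 for UV-B. For AT4TE32420 they give 0.626 and 0.547.

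AT5TE30190, which shares its locus with AT5G24450 and AT5G24460, had 1419, 1071 and 2155 FPKM in the same order. AT2TE86520, in the locus of AGP16, an arabinogalactan protein of the cell wall, had 937, 1065 and 795 FPKM. AT5TE92730, in the locus of FAAH, the fatty acid amide hydrolase that breaks down N-acylethanolamines, had 520, 802 and 243 FPKM. The sixth, AT1TE59245 in the locus of DGAT3, a diacylglycerol acyltransferase of lipid synthesis, had 497 FPKM in Col-0 under white light and was listed at 0 in both other groups, while DGAT3 had 280, 304 and 280 FPKM. In Col-0 under white light, 168 of the 607 elements with a value were above every gene of their locus. An FPKM divides the fragments by the length of the feature, so a short element reaches a high value with few fragments. The elements' own lengths were not found, and the part of length in these values was not tested.

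No element in a gene locus passed the authors' test in either comparison. In the authors' deposited table for dd, 285 of the 784 elements were tested and 0 had a q under 0.05, the smallest q being 0.999. Of all entries tested, 0.264% were higher and 0.157% lower at that q, so 0 of 285 is near that share. At an unadjusted p under 0.05, 1 element was counted (0.351% of those tested), against 3.71% of all entries tested. In the authors' deposited table for UV-B, 290 were tested and 0 had a q under 0.05, against 2.04% higher and 1.81% lower of all entries tested. The smallest q was 0.564, and 0 had an unadjusted p under 0.05, against 11.7% of all entries tested. The smallest unadjusted p was 0.0413 for dd and 0.087 for UV-B. No second tool could be run on pooled values. Among elements outside gene loci the authors' deposited tables hold 4 of 103 tested that were higher in dd and 1 of 93 that was higher under UV-B at a q under 0.05.

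The ratios of the elements were nevertheless wide. Of the 291 elements above 0 in both dd and Col-0, 106 (36.4%) were at least 1.5 times higher in dd and 62 (21.3%) at least 1.5 times lower, against 7.18% and 5.82% of all entries above 0 in both groups. Under UV-B the counts were 105 (34.3%) and 62 (20.3%) of 306, against 8.33% and 8.42% of all entries. Elements outside gene loci were as wide or wider, with 48.2% higher and 22.8% lower of 197 for dd, and 42.5% and 23.6% of 212 for UV-B. The median log2 ratio of the elements was 0.13 for dd and 0.20 for UV-B, with interquartile ranges from -0.48 to 1.18 and from -0.46 to 1.23. The genes in the same loci had medians of -0.0025 and 0.0011 and interquartile ranges from -0.13 to 0.11 and from -0.18 to 0.18. Besides these, 103 elements had a value in dd and not in Col-0 and 316 the reverse, of 710 above 0 in either. For UV-B, 95 had a value under UV-B and not under white light and 301 the reverse, of 702. Over all entries the same skew was found. There 859 had a value in dd only and 3165 in Col-0 only, of 27680, and 831 under UV-B only and 2961 under white light only, of 27649.

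The next question was whether an element follows the gene whose locus it shares. For dd, 345 pairs had both members above 0 in both groups, and in 169 of them (49.0%, exact binomial 95% interval 43.6 to 54.4%) the element's ratio had the same sign as the gene's. For UV-B this held in 200 of 362 pairs (55.2%, 49.96 to 60.4%). Those intervals cover counting error only and treat pairs as independent, although pairs of a locus share an element or a gene. Across the pairs Pearson's r between the element's and the gene's log2 ratios was 0.07 for dd and 0.05 for UV-B, and Spearman's rho was 0.03 and 0.17; both members of a pair come from the same libraries.

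Elements stood apart from their genes by more than the genes themselves varied. The log2 ratio of the element minus that of the gene had a median of 0.19 for dd and 0.13 for UV-B, and its size had a median of 0.81 and 0.68. A difference of at least 1 on the log2 scale, in either direction, was found in 141 of the 345 dd pairs (40.9%) and in 149 of the 362 UV-B pairs (41.2%). The element's ratio was larger in size than the gene's in 286 and 308 pairs. The direction of the median difference depends on how values of 0 and low values are treated. With 1 FPKM added to every value, which brings in pairs with a value of 0, it was -0.08 for dd over 809 pairs and -0.13 for UV-B over 808.

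A difference of that size was less frequent among elements with more signal, when elements were split by the mean of their FPKM in both groups. Of the 267 dd pairs whose element had a mean of at least 1 FPKM, 38.6% differed by at least 1 on the log2 scale. Of the 128 pairs at 10 FPKM or more the share was 25.8%, and of the 57 pairs at 50 FPKM or more it was 17.5%. For UV-B the shares were 36.9% of 260, 33.1% of 133 and 25.5% of 51 pairs. The share of pairs with the same sign was 53.9% for dd and 56.4% for UV-B at 10 FPKM, and 54.4% and 62.7% at 50 FPKM. The binomial intervals at 50 FPKM were wide, from 40.7 to 67.6% and from 48.1 to 75.9%. At 10 FPKM the median difference was close to 0 and below it, at -0.0025 for dd and -0.05 for UV-B.

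**Figure D2:**
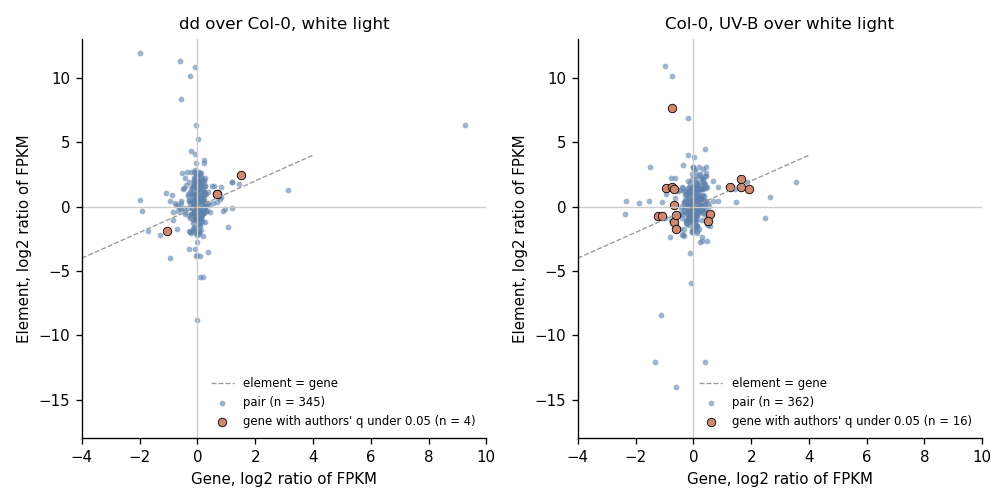
Log2 ratio of FPKM of the element (y axis) against that of the gene in the same locus (x axis) for dd over Col-0 (left, 345 pairs) and UV-B over white light (right, 362 pairs). The points form a vertical band rather than following the dashed line of equal ratios, since the genes' ratios were narrow and the elements' were wide; orange points are pairs whose gene had a q under 0.05 in the authors' deposited table.

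Some of the element ratios recurred exactly. Over all annotated elements, 7 log2 ratios for dd and 5 for UV-B were shared, within 0.001, by 6 or more elements. For dd 4 of them were 1.43, 1.60, 1.88 and 2.05, or 2.70, 3.04, 3.69 and 4.14 times Col-0. These 4 were selected because the lower pair and the upper pair were equally far apart, here 0.167 on the log2 scale. The equal spacing is thus the rule of the choice and not a finding. The other shared log2 ratios for dd were -0.097, 0.516 and 2.68. For UV-B the 4 recurrent log2 ratios were 1.33, 1.36, 1.49 and 1.53, or 2.51, 2.57, 2.81 and 2.89 times white light. The same rule selected these. Among them 1.33 and 1.49, and 1.36 and 1.53, stood 0.167 apart, and the shared ratio left out was 0.444. Both comparisons share the Col-0 libraries. These 4 ratios held 15 of the 291 elements of gene loci with a ratio for dd and 19 of the 306 for UV-B.

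By arithmetic, 1 fragment in 1 of 2 libraries per group, each library scaled by its own depth, gives 4 ratios with such spacing. The 4 ratios were selected for that spacing, and whether these values are single fragments was not tested. From the 4 ratios the log2 ratios of 0, 1 or 2 fragments per library were computed, 55 different values in each comparison. Of the elements in gene loci, 53 of 291 (18.2%) for dd and 59 of 306 (19.3%) for UV-B lay within 0.001 of one of them. The 4 starting ratios came from the elements' own values, and 15 of the 53 and 19 of the 59 lay on them. Shares of elements and of genes are therefore not on equal terms. Elements outside gene loci did so as often, 39 of 197 (19.8%) and 45 of 212 (21.2%). Of the genes in the same loci, 18 of 761 (2.37%) and 24 of 776 (3.09%) did so, and of all protein-coding entries 3.81% and 3.78%. Read this way, the selected ratios of 2.70 to 4.14 for dd and 2.51 to 2.89 for UV-B would be those of 1 fragment in each group. The depth of the libraries is not known here, and this reading was not tested. The part of depth in the numbers of elements above 0 was not tested.

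A high FPKM did not exclude these ratios. They included 11 elements of at least 10 FPKM in dd and 12 under UV-B, and 3 and 5 of at least 100 FPKM. AT1TE65155, in the locus of the purple acid phosphatase gene PAP5 (chr1:19716393-19723725), had 216 FPKM under white light and 551 under UV-B, the recurrent log2 ratio of 1.36, and was listed at 0 in dd. AT2TE80000, which shares a locus with PP2A-3, a catalytic subunit of protein phosphatase 2A, had 46.2 FPKM under white light, 390 under UV-B and 0 in dd, while PP2A-3 had 53.4, 52.9 and 51.0 FPKM. Both elements had a value in some groups and none in dd.

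**Figure D3:**
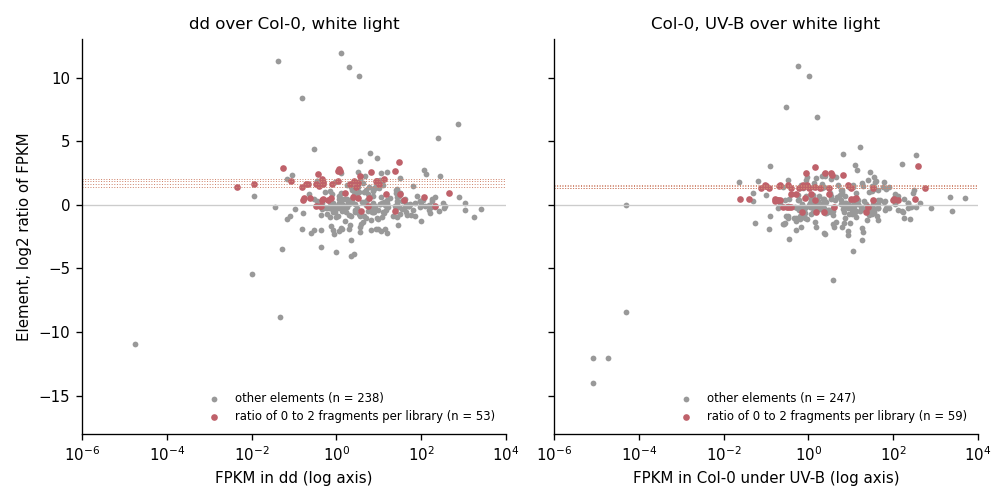
Log2 ratio of each element (y axis) against its FPKM in dd (left, 291 elements) or under UV-B (right, 306 elements) on a log axis. Red points are the 53 and 59 elements whose ratio equals that of 0 to 2 fragments per library, and dotted lines mark the 4 recurrent ratios of each comparison; red points reach values above 100 FPKM.

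The authors also deposited a list of raised transposons for each comparison. Elements of gene loci made up 106 of the 270 entries for dd (39.3%) and 105 of the 269 for UV-B (39.0%). The lists held every transposable element or transposable element gene with a value above 0 in both groups that was at least 1.5 times higher, 270 of 270 for dd, and 269 of 270 for UV-B. Their fold is thus the criterion of the lists and not a result about the elements. The listed elements of gene loci had a median log2 ratio of 1.60 for dd and 1.48 for UV-B, and none had a q under 0.05 in the authors' deposited tables, with 74 and 68 of them tested. An added 1 FPKM left 73 of 106 and 70 of 105 at least 1.5 times higher. The computed ratios of 0 to 2 fragments per library held 36 of the 106 (34.0%) and 32 of the 105 (30.5%). These shares are largely set by the choice of ratios, since all 4 starting ratios lie above the 1.5 times of the lists. On the starting ratios themselves lay 15 of the 36 and 19 of the 32. Of the elements at least 1.5 times lower, the computed ratios held 0 of 62 for dd and 1 of 62 for UV-B. Whether listed values are single fragments was not tested.

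Within the dd list the highest value after AT5TE92730 belonged to AT3TE45330 (chr3:10900843-10904458). It had 9.28 FPKM in Col-0, 756 in dd and 13.3 under UV-B. Its locus holds 2 genes that did not move alike. AT3G28899 had 0.213 FPKM in Col-0, 129 in dd and 0 under UV-B, while AT3G28900 had 71.7, 69.3 and 73.9 FPKM. The element and AT3G28899 were both high in dd alone, with log2 ratios of 6.35 and 9.25, but their p-values in the authors' deposited table were 0.237 and 0.246, with q = 0.999 for both. The spread between the 2 dd libraries behind these values cannot be seen in pooled values.

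AT3TE62825, which shares a locus with AAO2, an aldehyde oxidase, and with AT3G43590, had 56.9 FPKM in Col-0, 275 in dd and 0 under UV-B. AAO2 had 8.68, 9.35 and 12.97 FPKM, with q = 0.0919 for UV-B in the authors' deposited table, and AT3G43590 had 11.4, 10.6 and 10.5 FPKM. AT5TE32535, in the locus of TINY (chr5:8986542-8987898), an ERF-type transcription factor, had 6.63, 254 and 25.4 FPKM, and TINY had 8.95, 9.15 and 11.1 FPKM. The authors' deposited tables give AT5TE32535 an unadjusted p of 0.347 for dd and 0.48 for UV-B. Within the UV-B list AT3TE34080, in the locus of the calmodulin-like gene CML11 (chr3:8124020-8125931), had 23.6 FPKM under white light, 346 under UV-B and 129 in dd, and CML11 had 11.9, 12.0 and 11.8 FPKM. AT1TE30380, in the locus of AT1G27120, had 139, 305 and 216 FPKM in that order.

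The widest gaps between element and gene rested on very low Col-0 values. AT3TE36835 (chr3:8788814-8793371) had 0.000324 FPKM in Col-0, 1.26 in dd and 0.556 under UV-B, while its gene AT3G24255 had 1.43, 0.358 and 0.720 FPKM. The element minus gene difference was 13.93 for dd. AT3TE86990, in the locus of NTT (chr3:21370757-21373591), a zinc finger factor of the transmitting tract of the fruit, had 0.00108, 1.96 and 1.01 FPKM, and a difference of 10.90 in each comparison. AT4TE42895, beside AT4G16880 (chr4:9495983-9497313), had 0.00293, 3.35 and 0.290 FPKM. A ratio to a value this close to 0 has no useful size, and the authors' deposited tables show no test for AT3TE86990 in either comparison.

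Differences of the opposite sign came from elements that were low in the mutant or under UV-B. AT4TE38180, in the locus of AT4G15020 (chr4:8575342-8578729), had 21.3 FPKM in Col-0, 0.0468 in dd and 57.2 under UV-B, against 5.98, 5.88 and 6.38 FPKM for the gene, a difference of -8.80 for dd. AT2TE78400, in the locus of NTRC, the chloroplast thioredoxin reductase, had 37.7, 2.61 and 48.9 FPKM against 91.2, 97.1 and 106 FPKM. AT5TE17320, in the locus of P5CR, the last enzyme of proline synthesis, had 13.3, 0.994 and 26.6 FPKM against 85.3, 85.1 and 80.2 FPKM. In these 3 loci the element was lowest in dd while the genes' values lay close together.

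Under UV-B the lowest difference was that of AT1TE67775, in the locus of AXR4 (chr1:20511519-20514607), which is needed to place the auxin carrier AUX1. The element had 224 FPKM under white light, 3.71 under UV-B and 0 in dd, against 24.9, 23.3 and 22.2 FPKM for AXR4. AT4TE55150, in the locus of HIP1, had 136, 11.2 and 72.5 FPKM against 64.4, 59.5 and 70.7 FPKM. AT1TE06780 shares a locus (chr1:2070737-2077767) with MUG3, a MUSTANG gene itself derived from a transposase. Here the gene had the wider ratio: MUG3 had 0.224 FPKM under white light and 1.23 under UV-B, with an unadjusted p of 0.297 in the authors' deposited table, and the element had 1.19 and 0.637 FPKM.

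The elements beside genes that passed the authors' test were looked up after these values had been seen. In the authors' deposited table for dd, 3 of the genes were higher and 3 lower at a q under 0.05 among 687 tested, 0.437% each way against 0.264% and 0.157% of all entries tested. The loci of these genes held 10 elements with a value, 4 of which had a ratio, and in all 4 the sign was that of the gene. For UV-B, 14 genes were higher and 14 lower among 692 tested, 2.02% each way against 2.04% and 1.81%, close to the share over all entries. Of the 16 elements beside the higher genes 6 had a ratio, 4 of them above 0. Of the 15 beside the lower genes 10 had a ratio, 5 of them below 0. These counts are too small to be set against the 49.0% and 55.2% over all pairs.

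The dd genes were of several kinds. AT1G66090, a resistance-type gene with TIR and nucleotide-binding domains (chr1:24602033-24604763), had 15.1 FPKM in Col-0, 24.1 in dd and 15.9 under UV-B, with q = 0.0138 for dd in the authors' deposited table. Its 4 elements moved in different ways. AT1TE80805 had 237, 463 and 320 FPKM, and AT1TE80810 had 0.271, 0.540 and 0 FPKM. AT1TE80800 had 140 FPKM in Col-0 and was listed at 0 in both other groups, and AT1TE80815 had 10.7 FPKM in Col-0, 0 in dd and 37.4 under UV-B. Both ratios of AT1TE80805 are among those of 0 to 2 fragments per library.

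MRU1 (chr5:13689817-13692350) rose in both comparisons in the authors' deposited tables, with 8.75 FPKM in Col-0, 24.7 in dd and 20.7 under UV-B and q = 0.0138 and 0.00249. Its element AT5TE48725 had 0.231, 1.29 and 0.675 FPKM, log2 ratios of 2.49 and 1.56 against 1.50 and 1.26 for the gene. The element's pooled values were also higher in dd and under UV-B than in Col-0 under white light, at levels far below the gene's. In the authors' deposited tables the element had an unadjusted p of 0.171 for dd and was not tested for UV-B. The 2 comparisons share their Col-0 libraries. The peroxidase gene AT2G18980 (chr2:8233276-8235440) fell in dd from 43.4 to 21.0 FPKM, with q = 0.0138 in the authors' deposited table, and its element AT2TE34260 had 31.5 and 8.54 FPKM, with an unadjusted p of 0.537. The other 3 genes had only elements listed at 0 in dd.

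Of those 3, AT1G35710, a leucine-rich repeat receptor kinase gene, had 8.25 FPKM in Col-0, 17.5 in dd and 9.53 under UV-B, and its element AT1TE43195 had 0.586, 0 and 3.36 FPKM. MGDC, a synthase of the galactolipid MGDG that is active when phosphate is short, had 14.4, 6.81 and 44.8 FPKM (chr2:4743162-4747589). It fell in dd and rose under UV-B in the authors' deposited tables, with q = 0.0138 and 0.00249. Its elements AT2TE19685 and AT2TE19695 had 0.201 and 0.0359 FPKM in Col-0, 0.909 and 0.10 under UV-B, and 0 in dd. CYP708A2, the thalianol hydroxylase, had 20.2, 9.05 and 11.7 FPKM, and its element AT5TE69965 had 0.104 FPKM in Col-0 and was listed at 0 in both other groups.

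Under UV-B the gene with the highest values was TT4, chalcone synthase, the entry enzyme of flavonoid synthesis (chr5:4488476-4500735). TT4 had 248 FPKM in Col-0 under white light, 230 in dd and 941 under UV-B, with q = 0.00249 for UV-B in the authors' deposited table. AT5TE16270, the only element of its locus, had 0.0964, 0.358 and 0.247 FPKM. The element was higher in dd than under UV-B, and the gene was not. A further gene of the locus, AT5G13950, had 10.3, 10.3 and 10.2 FPKM. TT4 was the only one of 22 listed genes of UV-B signalling and flavonoid synthesis to share a locus with an annotated element. Over all protein-coding entries 3.30% shared a locus with an element that had a value.

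Elements beside genes that fell under UV-B included some that were lower there as well. RbcX1, a chaperone of Rubisco assembly, had 44.9 FPKM under white light and 19.0 under UV-B, q = 0.0378 in the authors' deposited table, and its element AT4TE10030 had 52.6 and 32.0 FPKM. MAP18, a protein that destabilises microtubules, had 60.8 and 28.4 FPKM, and AT5TE64925 in its locus had 1.96 and 1.15 FPKM. AT5G16030 had 246 and 162 FPKM, and its elements AT5TE18970 and AT5TE18975 had 3.75 and 2.43, and 21.9 and 6.36 FPKM. In each of these loci the element's pooled value was lower under UV-B, as the gene's was. These elements are among the 5 of 10 that shared the sign of a lower gene. Their unadjusted p-values for UV-B in the authors' deposited table were 0.766 (AT4TE10030), 0.566 (AT5TE64925), 0.777 (AT5TE18970) and 0.528 (AT5TE18975).

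In other loci the signs were opposite. BBX28, a B-box factor of light signalling, had 33.8 FPKM under white light and 21.1 under UV-B, and its element AT4TE64410 had 12.9 and 32.8 FPKM, again the recurrent log2 ratio of 1.36. Among the genes that rose under UV-B, MSRB6, a methionine sulfoxide reductase, had 92.1 and 137 FPKM, q = 0.00819 in the authors' deposited table, while AT4TE11410 in its locus had 18.7 and 12.4 FPKM. VAR1, a subunit of the FtsH protease of chloroplasts, had 188 and 263 FPKM, while AT5TE61030 had 1.97 and 0.902 FPKM. PPDK, pyruvate orthophosphate dikinase, had 38.6 and 75.4 FPKM, and its element AT4TE39650 had 0.239 FPKM under white light and was listed at 0 under UV-B.

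Loci known for repeats or DNA methylation in or beside the gene were looked up from a list of 17 genes. Of these, 5 shared a locus with an annotated element, and 2 of the 5, RPP7 and RPP4, had elements with a value. Over all protein-coding entries 3.30% shared a locus with an element that had a value, but these 17 genes were listed for repeats or methylation. Both encode resistance proteins against downy mildew, and in RPP7 a COPIA element in an intron is known to take part in the choice between full-length and shortened transcripts. RPP7 (AT1G58602, chr1:21746354-21766048) had 21.5 FPKM in Col-0, 25.2 in dd and 28.0 under UV-B, with q = 0.999 and 0.194 in the authors' deposited tables. Of the 16 elements in its locus 12 were at 0 in every group.

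The other 4 elements of the RPP7 locus had higher values under UV-B than under white light, and 2 of them had a value in dd, at log2 ratios of 3.65 and 0.12. AT1TE71840 had 0.726 FPKM in Col-0 under white light, 9.11 in dd and 16.3 under UV-B. AT1TE71775 had 0.414, 0.449 and 1.36 FPKM, AT1TE71765 had 0.706, 0 and 3.56 FPKM, and AT1TE71830 had 0.0338, 0 and 0.0966 FPKM. The log2 ratios for UV-B were 4.51, 1.73, 2.35 and 1.53, against 0.39 for RPP7. Their p-values in the authors' deposited table for UV-B were 0.358, 0.0893 and 0.448 for the 3 that were tested. AT1TE71830 stood at the recurrent ratio of 1.53, and the ratio of AT1TE71765 is also among those of 0 to 2 fragments per library. The tables do not name the intronic COPIA among the elements of the locus.

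RPP4 (chr4:9480046-9495837), a TIR-type resistance gene of the RPP5 cluster, had 9.70 FPKM in Col-0, 8.19 in dd and 9.07 under UV-B. AT4TE42860 in its locus was the element with the smallest unadjusted p for dd, 0.0413 with q = 0.999 in the authors' deposited table. It had 1.04, 2.29 and 0.510 FPKM, with a log2 ratio of 1.14 for dd. AT4G16870, the transposable element gene of the same locus, had 2.32, 3.02 and 1.79 FPKM. AT4TE42890 had 145, 179 and 0 FPKM, and the other 4 elements were listed at 0. RPP4 itself was not higher in dd. Of the further genes of the locus, AT4G16857 had 3.30, 4.27 and 1.92 FPKM and AT4G16850 had 6.93, 6.16 and 5.77 FPKM. Both had q = 0.999 for dd in the authors' deposited table, and AT4G16855 was listed at 0.

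**Figure D4:**
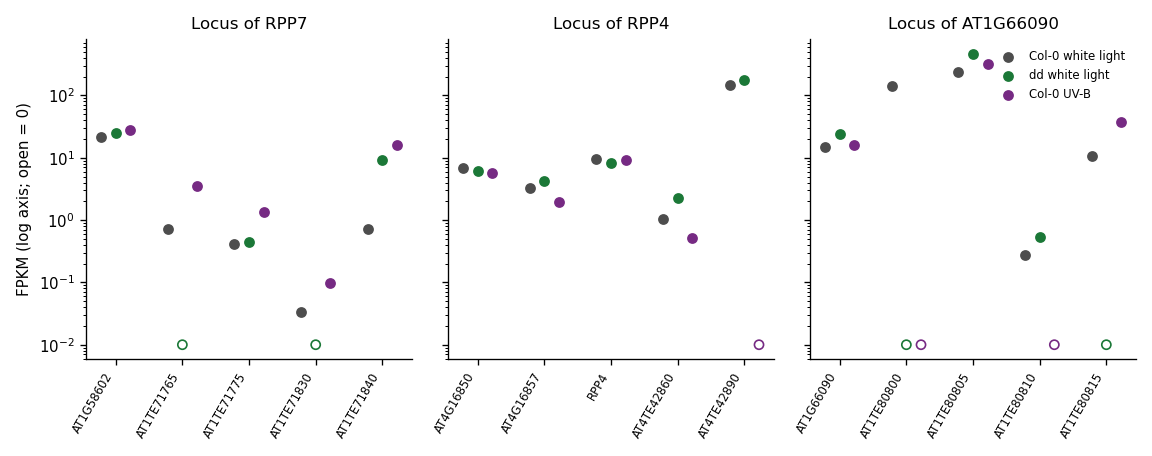
FPKM on a log axis (y axis) of the protein-coding genes and of the elements with a value (x axis) in the loci of RPP7 (AT1G58602), RPP4 and AT1G66090, 1 pooled value per group; open circles at the bottom stand for 0. The RPP7 elements were highest under UV-B, AT4TE42860 of the RPP4 locus was highest in dd, and 3 of the 4 elements of the AT1G66090 locus were at 0 in 1 or both of the other groups.

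Of 18 listed genes of RNA-directed DNA methylation and of other methylation steps, 3 shared a locus with an annotated element, namely DCL3, SUVH2 and DML3, and none of these elements had a value above 0. Over all 27652 protein-coding entries 3.30% shared a locus with an element that had a value, so 0 of 18 is near that share. DCL3 cuts the precursors of the small interfering RNAs, SUVH2 binds methylated DNA and brings in the polymerase of the pathway, and DML3 removes methylated bases. Where several elements of a locus had ratios, their signs could be compared within it. All elements of the locus had 1 sign in 6 of 11 such loci for dd and in 9 of 10 for UV-B. The loci are few, and no share for elements of different loci was computed to set beside these counts. Over all elements in gene loci the median log2 ratio was above 0, at 0.13 for dd and 0.20 for UV-B.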

How the data were processed

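RNA-seq tables of the seedlings were analysed as deposited. Adapter trimming with Trimmomatic, alignment with HISAT2 and quantification with Cufflinks on TAIR10 are named in the submitters' processing notes, without versions or order. The deposited values are FPKM, 1 pooled value per group computed by the authors from 2 libraries, per the file headers and labels. The p-values and q-values are the authors' own, from the deposited tables, which also state which entries were tested. The depth per library is not given in these files, so it is unknown here and limits low values.

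From these, log2 ratios were computed within each table without a pseudocount (Python 3.11.15, pandas 2.3.3, numpy 2.4.6, scipy 1.17.1). Col-0 values are printed from the dd table; they were 1.009 times those of the UV-B table, and ratios used each table's own. Elements were joined to genes by shared locus (at least 1 bp), a step checked on simulated data. A gene with the longest overlap could not be chosen, since all ranges within a pair were identical, so every gene of a locus formed a pair. All 913 genes matched RefSeq by locus tag; symbols are from there, and RPP7 is the published name of AT1G58602.

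Members and gene lists were chosen with earlier results of these data known. The 6 highest Col-0 values, the 5 highest per authors' list and members beside listed genes were all named. Further elements were drawn from the 6 highest and 6 lowest element minus gene differences per comparison (at least 1 FPKM in the higher group). Some of those named are also among the 35 members in both lists. Not every element of these last sets is named. Elements beside genes past q 0.05 and those at fragment-like ratios were named after their values were seen. Alternatives covered pseudocounts, minimum values, the choice of gene, tested elements and thresholds.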

Additional observations from a re-analysis of the deposited data

How the results depend on the processing

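The shares of pairs with the same sign ran from 47.7 to 54.4% for dd and from 53.1 to 62.7% for UV-B over the alternatives run; all lay within the main binomial interval except the 62.7% for UV-B, with elements of a mean of at least 50 FPKM. The median difference (element minus gene, log2) did not keep its direction: with a pseudocount of 1 FPKM it was -0.0782 for dd and -0.131 for UV-B, with 0.1 FPKM it was -0.314 and -0.35, and with elements of at least 10 FPKM in both groups 0.0235 and -0.0093. With the element's mean of both groups at least 1 FPKM it was 0.0875 and 0.0505, at 10 FPKM -0.00246 and -0.0543, and at 50 FPKM -0.0533 and -0.0543. Pseudocounts bring in pairs with a value of 0; the cause at 10 and 50 FPKM was not tested. It was 0.0875 and 0.0679 where element and gene reached 1 FPKM in the group with more, 0.106 and 0.202 with elements in single-gene loci, 0.152 and 0.159 with the highest gene of the locus, 0.124 and 0.0279 with elements the authors tested, 0.131 and 0.128 with at least 0.01 FPKM in both groups, and 0.106 and 0.0746 without elements at the 4 recurrent ratios. The minima of 0.01 and 10 FPKM, the splits by mean and the removal of recurrent ratios were chosen after seeing the data. A minimum of 1 FPKM left 378 elements for dd and 379 for UV-B, of 710 and 702. An unadjusted p under 0.05 gives 1 higher element for dd and changed no other count of calls. Requiring the element wholly or mostly inside the gene's locus changed nothing, because the ranges are identical. No paired analysis was possible because the tables hold 1 pooled value per group, and for the same reason no replicate could be left out.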
